A study of Mus musculus with 4 samples.

Results

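The stathmins and the collapsin response mediator proteins (CRMPs) are 2 families of proteins that bind tubulin in the developing nervous system. Stathmins hold free tubulin dimers and favour the shrinking of microtubules, an activity that phosphorylation turns off. CRMPs resemble the enzyme dihydropyrimidinase but lack its catalytic activity. They bind tubulin dimers and promote microtubule assembly, and they relay semaphorin signals in growth cones, where kinases such as Cdk5 and Gsk3b release them from tubulin. Both families are best known from newly born, migrating and axon-bearing neurons, and stathmin itself is also abundant in dividing progenitors. The 9 genes described here, Stmn1 to Stmn4, Crmp1 and Dpysl2 to Dpysl5, were chosen by symbol, 1 Ensembl identifier each, out of 45706 genes in the deposited count table.

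By the labels, the RNA came from medial basal radial glia, progenitors of the neocortex that sit away from the ventricle, taken from mice at E18.5. The 4 replicate libraries form a single group. All 4 came from the strain C57BL/6JOlaHsd with the genotype Tubb-GFP/+, and their titles name the lipophilic dye DiI. How the cells were picked out with them is not stated in the labels, nor whether each library had its own animals. Any p-value here rests on the variation among 4 libraries, and that variation may be technical. With no second group, the questions the data answer are how abundant each gene was, how the members of a family shared its total, and how steady these values were between libraries.

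Library totals ran from 26540656 to 34837657 counts. Levels are given as TPM, the abundance of a gene's transcripts relative to all transcripts of a library. Marker genes of several cell types were set beside the label. All 8 radial glia markers and 4 of 5 basal radial glia markers (not Fam107a) lay above 1 TPM, with Fabp7, a fatty acid binding protein of radial glia, averaging 4631 ± 382 TPM (SD, n = 4) and Hopx, a marker of basal radial glia, at 3.03 ± 0.414 TPM. All 9 neuron markers other than the members were above 1 TPM too. Tubb3, the neuronal beta-tubulin, stood at 6691 ± 496 TPM, and Eomes, which marks intermediate progenitors, at 18.9 ± 1.24 TPM. Summed TPM ran from 9298 to 10361 for neuron markers, from 4737 to 5727 for radial glia markers and from 330.0 to 434 for basal radial glia markers. The sums of the other lists ran from 1246 to 1418 TPM for intermediate progenitors, 2374 to 4198 for erythroid cells, 43.6 to 51.7 for the oligodendrocyte lineage, 17.3 to 25.4 for apical progenitors, 15.5 to 34.9 for microglia, 12.1 to 20.3 for interneurons and 3.68 to 6.60 for endothelium. No marker of any list was at 0 in all libraries. The neuron and erythroid sums exceeded the basal radial glia sum in every library. Sums over different genes do not measure shares of cell types. The levels below are those of the RNA as collected and cannot be assigned to basal radial glia alone. How much of it came from each cell type was not tested. In bulk RNA, fewer cells of a type and less RNA per cell cannot be told apart.

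The 4 stathmins share a tubulin-binding domain, and their coding sequences show how far the transcripts can be told apart. The stretch of 60 coding bases most alike in the 4 genes, lying in a single exon of each, is given from the GENCODE M21 transcripts (GRCm38), 5′ to 3′ on the coding strand. Capitals mark the 19 positions at which at least 1 of the 4 genes differs.
Stmn1 (chr4:134472858-134472917, plus strand, exon 4): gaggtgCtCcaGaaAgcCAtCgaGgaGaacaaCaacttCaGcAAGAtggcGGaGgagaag
Stmn2 (chr3:8554846-8554905, plus strand, exon 4): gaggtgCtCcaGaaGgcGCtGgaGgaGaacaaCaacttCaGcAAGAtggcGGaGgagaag
Stmn3 (chr2:181307294-181307353, minus strand, exon 4): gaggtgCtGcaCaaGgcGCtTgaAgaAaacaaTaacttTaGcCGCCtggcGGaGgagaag
Stmn4 (chr14:66357900-66357959, plus strand, exon 6): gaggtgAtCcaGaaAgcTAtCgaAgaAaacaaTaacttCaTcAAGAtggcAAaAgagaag
Over all aligned coding bases, identity between pairs of stathmins ran from 64.6% to 73.6%. The longest run of identical bases shared by any pair of their transcripts was 43 bases, between Stmn1 and Stmn2.

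For 4 of the CRMPs the most similar stretch of 60 coding bases within 1 exon is shown for the same reason, again with capitals at the 19 positions that differ in at least 1 of them.
Crmp1 (chr5:37284034-37284093, plus strand, exon 11): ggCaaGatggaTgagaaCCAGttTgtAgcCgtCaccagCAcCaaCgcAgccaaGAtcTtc
Dpysl2 (chr14:66813231-66813290, minus strand, exon 11): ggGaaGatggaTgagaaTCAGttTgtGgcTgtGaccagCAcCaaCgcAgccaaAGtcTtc
Dpysl4 (chr7:139097828-139097887, plus strand, exon 11): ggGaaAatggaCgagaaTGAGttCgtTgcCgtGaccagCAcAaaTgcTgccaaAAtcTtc
Dpysl5 (chr5:30791498-30791557, plus strand, exon 10): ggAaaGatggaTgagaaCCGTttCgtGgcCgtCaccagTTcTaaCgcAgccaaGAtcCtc
Dpysl5 was the most distant member, with 57.5% to 58.6% identity to the other CRMPs, while Crmp1 and Dpysl2 were the closest pair at 74.0%. No pair of CRMP transcripts shared a run of identical bases longer than 29.

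All 9 genes passed the minimum of 10 counts in total, and all 9 lay above 1 TPM by edgeR's quasi-likelihood test with Benjamini-Hochberg adjustment over 20991 genes (largest adjusted p = 4.24e-15, for Dpysl4). Of all genes tested, 65.9% were above 1 TPM. All 9 were also above 10 TPM, where 35.2% of the genes tested were. Protein-coding genes lie higher as a set. Of 15401 tested, 7390 averaged 10 TPM or more, and the gene at rank 12201 still averaged 1.03 TPM. On the log2(TPM + 1) scale the median of the members was 9.39, against 2.505 for all genes tested and 3.31 for the protein-coding genes tested. TPM is here the count divided by the merged exonic length and scaled so that each library sums to 1000000. Gene positions are on GRCm38.

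Dpysl2 (ENSMUSG00000022048, chr14:66802864-66868688, minus strand) encodes CRMP2, which carries tubulin dimers to growing microtubule ends and is required for axon specification. It had 6424, 6471, 6008 and 7980 TPM in replicates 1 to 4, on 259847, 329248, 260898 and 297159 counts. Replicate 4 was the highest library and the other 3 lay close together. With a mean of 6721 ± 865 TPM (SD, n = 4), Dpysl2 ranked 6 among 15401 protein-coding genes. Its level was close to that of Tubb3, the protein-coding gene most like it over the 4 libraries by the root mean square difference of log2(TPM + 1), at 0.205. Selenow, a selenoprotein gene, and Eef1a1, the translation elongation factor, followed at 0.267 and 0.268. The likeness is one of level. In replicate 4, where Dpysl2 was highest, Tubb3, Selenow and Eef1a1 were each at their lowest, at 6263, 5638 and 5562 TPM.

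Stmn1 (ENSMUSG00000028832, chr4:134468320-134473843, plus strand), the soluble stathmin of dividing cells and young neurons, was the second most abundant member. It had 2580.3, 2511.5, 2479 and 2246 TPM in the 4 libraries, a mean of 2454 ± 145 TPM (SD, n = 4) and rank 31 among protein-coding genes. Replicate 4 was the lowest and the range was narrow, with the highest library 1.15 times the lowest. Among the genes most like it in level were the beta-tubulin gene Tubb2b (0.122) and the ribosomal protein gene Rps3a1 (0.124), by the same measure.

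A copy of Stmn1 makes its level uncertain. Gm11223 (ENSMUSG00000046341), annotated as a processed pseudogene at chr4:69925630-69926079 on the minus strand, matched the Stmn1 transcript over 450 bases at 99.8% identity. It had 1071, 1304, 1129 and 813 counts, or 2.29% to 2.47% of the Stmn1 count in the same library. Reads from these bases cannot be assigned to 1 of the 2 genes with certainty, and the sources used here do not say how the authors counted reads with several matches. For the other 8 members, no transcript of another gene matched over at least 100 bases at 95% identity or more. No member shared exonic bases with a gene on the opposite strand.

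Stmn3 (SCLIP; ENSMUSG00000027581, chr2:181306459-181314500, minus strand) and Stmn4 (RB3; ENSMUSG00000022044, chr14:66344296-66361680, plus strand) are neural stathmins that carry an added amino-terminal stretch anchoring them to membranes. Stmn3 had 1320.3, 1259.8, 1066 and 1084 TPM in replicates 1 to 4, with a mean of 1183 ± 127 TPM (SD, n = 4). Stmn4 had 1090.2, 1084, 891 and 934 TPM, with a mean of 999.8 ± 103 TPM. In both genes replicates 1 and 2 were above replicates 3 and 4. Stmn3 exceeded Stmn4 in all 4 libraries, with a log2 ratio of 0.24 ± 0.031 (SD, n = 4), although their ranges of TPM overlapped. The order turned with the longest coding transcript as length, by which Stmn4 averaged 983 ± 99 TPM and Stmn3 826 ± 86.9 TPM. It also turned with the longest transcript of any kind, at 1065 ± 108 TPM for Stmn4 and 895 ± 94.9 TPM for Stmn3. With counts scaled to library size alone it turned too, and on the deposited TPM it held.

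Stmn2 (SCG10; ENSMUSG00000027500, chr3:8509360-8561606, plus strand), the membrane-anchored stathmin of growth cones that is often used as a marker of neuronal differentiation, had the lowest TPM of the stathmins by merged exons. Its values were 463, 449.5, 416 and 469 TPM, with a mean of 449 ± 23.6 TPM (SD, n = 4), and no library stood apart. This level rests on the length used. The merged exons of Stmn2 span 5602 bases because they include annotated transcripts that retain introns, while its only coding transcript has 2073 bases. With the longest coding transcript as the length of every gene, Stmn2 was at 848 ± 44.8 TPM, 1.89 times its level by merged exons and just above Stmn3 at 826 ± 86.9 TPM.

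Dpysl3 (ENSMUSG00000024501, chr18:43320984-43438286, minus strand) encodes CRMP4, which binds actin filaments as well as tubulin. It was the steadiest member, with 691, 629.5, 685 and 667 TPM in replicates 1 to 4, a mean of 668 ± 27.7 TPM (SD, n = 4) and a coefficient of variation of 4.14%. Dpysl5 (ENSMUSG00000029168, chr5:30711564-30799375, plus strand) encodes CRMP5, which in neurons can counter the outgrowth promoted by CRMP2. It was the least steady member, with 388, 351, 266 and 273 TPM and a mean of 319.7 ± 59.7 TPM. Its coefficient of variation was 18.7%, against a median of 5.35% for the 200 protein-coding genes nearest to it in level. Replicates 1 and 2 stood above replicates 3 and 4.

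Crmp1 (ENSMUSG00000029121, chr5:37241940-37292133, plus strand), which takes part in the semaphorin 3A response and in the migration of cortical neurons, had 344, 319, 288 and 282 TPM and a mean of 308 ± 29 TPM (SD, n = 4). Dpysl4 (ENSMUSG00000025478, chr7:139086001-139102704, plus strand), which encodes CRMP3, was far below the rest at 30.8, 30.7, 24.8 and 26.7 TPM, with a mean of 28.3 ± 2.98 TPM. Its counts of 1648, 2068, 1426 and 1318 give exact Poisson 95% half-widths of at most 5.44% of the count, and at most 1.95% for the other members, covering counting error only. Of the 9 members, 3 ranked among the first 100 protein-coding genes and 8 among the first 1000, and Dpysl4 was at rank 4337.

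**Figure D1:**
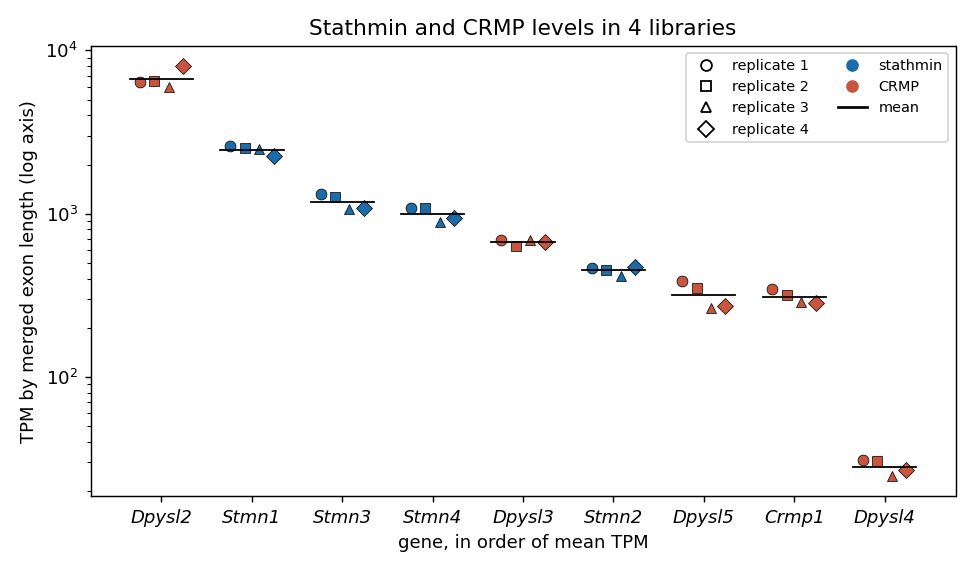
TPM by merged exon length (log axis) of the 9 genes in order of their mean; each symbol is 1 of 4 replicate libraries and the bar is the mean. Dpysl2 stands highest at a mean of 6721 TPM and Dpysl4 lowest at 28.3 TPM, and the spread between libraries is small beside the distance between most genes.

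**Figure D2:**
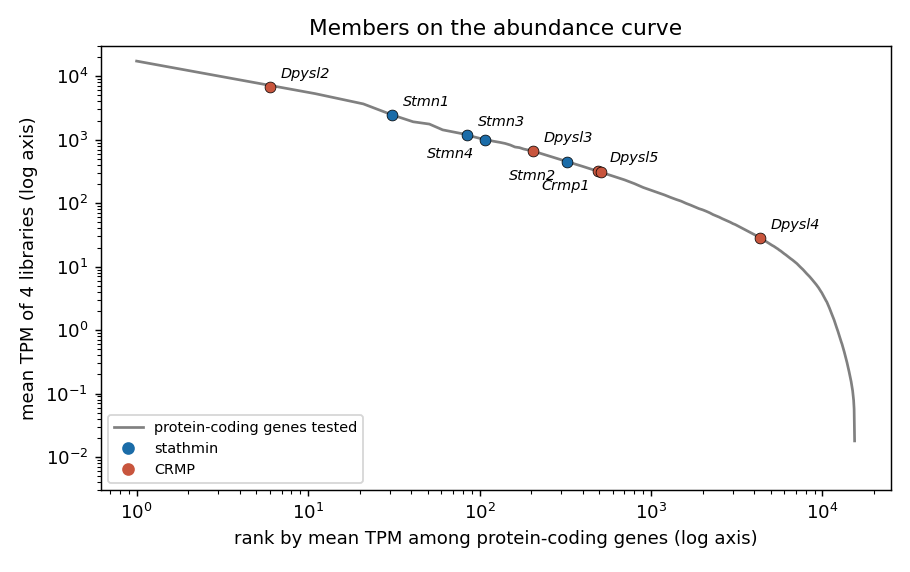
Mean TPM of 4 libraries against rank among 15401 protein-coding genes with at least 10 counts (both axes log); points are members and the line is all such genes. Dpysl2 lies at rank 6 and Stmn1 at rank 31, while Dpysl4 lies at rank 4337.

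By merged exons the order of mean TPM was Dpysl2, Stmn1, Stmn3, Stmn4, Dpysl3, Stmn2, Dpysl5, Crmp1 and Dpysl4. Each of the 36 pairs of members was compared within libraries as log2((TPM + 1)/(TPM + 1)). In 35 pairs the mean difference exceeded 1 SD and had a single sign in all 4 libraries, which gives an exact two-sided sign-flip permutation p of 0.125, the smallest that 4 libraries allow. Of the 8 neighbours in the order, 7 were apart in this sense. Dpysl2 exceeded Stmn1 by 1.45 ± 0.26 on the log2 scale (SD, n = 4), and Crmp1 exceeded Dpysl4 by 3.40 ± 0.072. Dpysl5 and Crmp1 were the only pair within its spread, at 0.039 ± 0.14, with Dpysl5 higher in 2 of 4 libraries (exact sign-flip permutation p = 0.625). By the longest coding transcript Dpysl5 was lower, at 317 ± 58.6 TPM against 497 ± 45.9 TPM for Crmp1.

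The families had different compositions. Stmn1 made up 47.3% to 51.1% of the summed stathmin TPM, with a mean of 48.3 ± 1.86% (SD, n = 4). Stmn3 followed with 23.2 ± 0.983%, Stmn4 with 19.6 ± 0.898% and Stmn2 with 8.86 ± 0.7%. The CRMP total was carried by a single gene. Dpysl2 made up 81.5%, 83.0%, 82.6% and 86.5% of it in replicates 1 to 4. The mean share of Dpysl3 was 8.37 ± 0.941%, of Dpysl5 4.01 ± 0.876%, of Crmp1 3.87 ± 0.569% and of Dpysl4 0.354 ± 0.049%. On the 5 treatments of gene length tried, Dpysl2 kept between 76.7% and 83.4% of the CRMP total and Stmn1 between 45.0% and 72.4% of the stathmin total, while the share of Stmn2 ran from 4.10% to 24.0%.

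**Figure D3:**
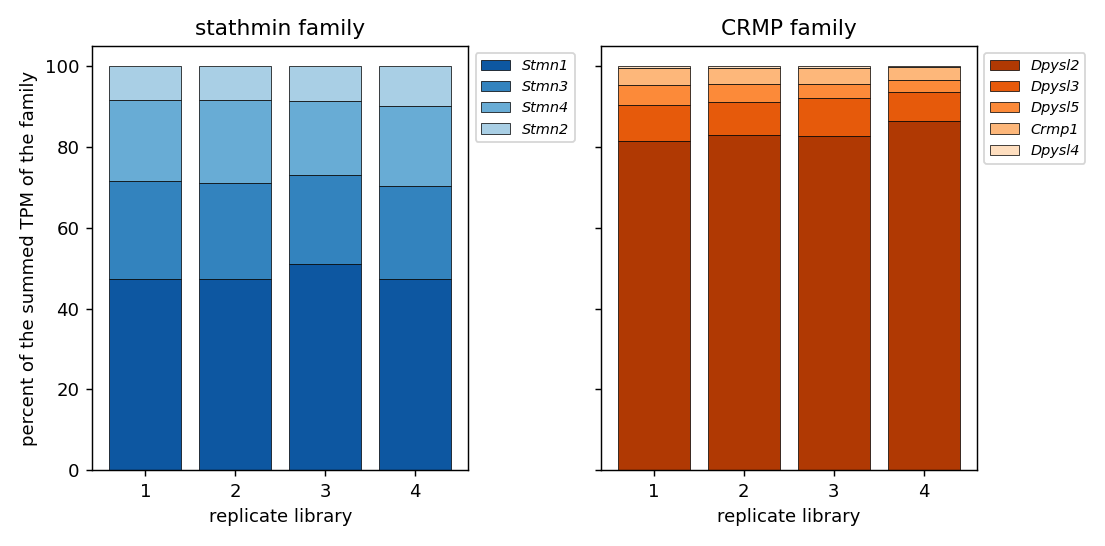
Percent of the summed TPM of each family (merged exon length) taken by each member in the 4 replicate libraries, as stacked bars that start at 0. Stmn1 takes 47.3% to 51.1% of the stathmin total, and Dpysl2 takes 81.5% to 86.5% of the CRMP total.

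Summed TPM was 5454, 5305, 4852 and 4733 for the stathmins and 7878, 7801, 7272 and 9229 for the CRMPs in replicates 1 to 4. The stathmin total was below the CRMP total in all 4 libraries, with a log2 ratio of -0.66 ± 0.20 (SD, n = 4; exact sign-flip permutation p = 0.125). This difference rested on Dpysl2 and on the length scale. Without Dpysl2 the stathmin total exceeded that of the other CRMPs 3.84 times (log2 ratio 1.94 ± 0.039), in 4 of 4 libraries. This follows from the share of Dpysl2 in the CRMP total given above, and no stathmin was left out. With the longest coding transcript as length, the log2 ratio of the full families was -0.080 ± 0.181, within the spread between libraries, and on the deposited TPM it was 1.03 ± 0.202, in the other direction. Both families together held 1.21% to 1.40% of all TPM and 1.48% to 1.70% of all counts.

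The deposited TPM gave a different picture of the CRMPs because it divides counts by the whole gene span, introns included. In replicate 1, the library in which this was checked, gene span accounted for the deposited TPM of all 9 members to within 0.01 (log2). Merged exon length did so for 0 members. The ratio of span to merged exon length ran from 2.79 in Dpysl4 and 2.87 in Stmn1 to 14.6 in Dpysl2 and 17.8 in Dpysl3. On this scale Stmn1, at 2999 ± 178 deposited TPM (SD, n = 4), stood above Dpysl2, at 1621 ± 207. Dpysl3 was at 132 ± 5.37 deposited TPM, 0.198 times its TPM by merged exons, whereas Dpysl4 was at 35.5 ± 3.72, or 1.26 times. The order of 4 of the 36 pairs turned on the deposited scale, of 4 with the longest coding transcript, of 2 with the longest transcript of any kind and of 9 with CPM, counts scaled to library size alone. Dpysl4 was the lowest member on every one of these scales.

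**Figure D4:**
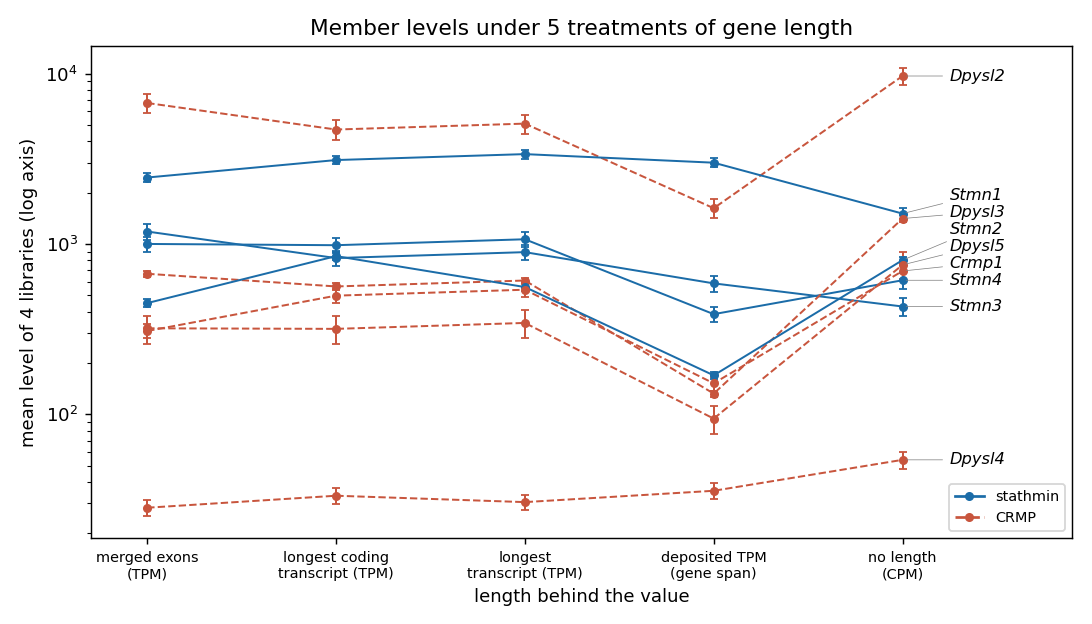
Mean level of each member (log axis, error bars SD over 4 libraries) with gene length taken as merged exons, longest coding transcript, longest transcript or gene span (deposited TPM), or not at all (CPM). Stmn1 stands above Dpysl2 on the deposited scale alone, and Dpysl4 is lowest throughout.

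The spread between libraries was wider than that of genes of like level for several members. The coefficient of variation was 12.9% for Dpysl2, 10.7% for Stmn3, 10.3% for Stmn4 and 9.43% for Crmp1, against medians of 5.12% to 5.30% for the 200 protein-coding genes nearest to each in level. For Dpysl2, at rank 6, few genes are higher. Its 200 nearest genes reach down to about 673 TPM, so most are not of like level. Those of Stmn1, at rank 31, reach down about as far, and the same limit holds. For Stmn1, at 5.91%, and Dpysl4, at 10.5%, it was close to the corresponding medians of 5.30% and 9.57%, and for Stmn2 and Dpysl3 it was below theirs. Replicate 1 was the highest library for 7 of 9 members, and replicate 3 the lowest for 6 of 9. Among 7390 protein-coding genes at 10 TPM or more, 24% were highest in replicate 1 and 23.8% lowest in replicate 3. Dpysl5 deviated most from its mean, by 0.30 in replicate 1 and -0.24 in replicate 3 on the log2 scale, followed by Dpysl2 with 0.26 in replicate 4.

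Sums of cell type markers differed between the same libraries, but single markers of a list did not move as one. The summed TPM of the 9 neuron markers was highest in replicate 1 (0.080 on the log2 scale) and lowest in replicate 3 (-0.077), and Tubb3 made up 68.2% of it. Gene by gene, 3 of the 9 neuron markers were highest in replicate 1 and 5 in replicate 4, and 2 were lowest in replicate 3. The radial glia sum, of which Fabp7 made up 88.4%, was lowest in replicate 1 (-0.14) and highest in replicate 3 (0.13). Of the 8 radial glia markers, 4 were lowest in replicate 1 and 6 highest in replicate 3. The basal radial glia sum, of which Tnc made up 68.9%, was lowest in replicate 1 (-0.21) and highest in replicate 3 (0.18), where 2 and 3 of its 5 markers were. The part of these differences in the levels of the members was not tested. Stmn1 and Dpysl3 were the only members above their mean in replicate 3, by 0.016 and 0.037.

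Dpysl2 stood out in replicate 4, where it was 1.33 times its lowest value. Many genes were highest in that library, 37.4% of the 7390 protein-coding genes at 10 TPM or more and 16 of the 47 genes of the partner and relative lists described last. Many were also lowest in replicate 4, 29.1% of these protein-coding genes and 12 of the 47. Long genes as a whole were somewhat higher there. The median deviation in replicate 4 was 0.091 on the log2 scale for the quintile of protein-coding genes (at 10 TPM or more) with the longest merged exons, -0.051 for the shortest quintile and 0.016 for the quintile that holds Dpysl2. The part of length in the level of Dpysl2 was not tested. Replicate 4 was also the library farthest from the others over all genes, with a chi-square per degree of freedom of 20.1 to 26.4 against each of them, compared with 9.84 to 13.9 among replicates 1 to 3. Without replicate 4 the mean of Dpysl2 was 6301 TPM.

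**Figure D5:**
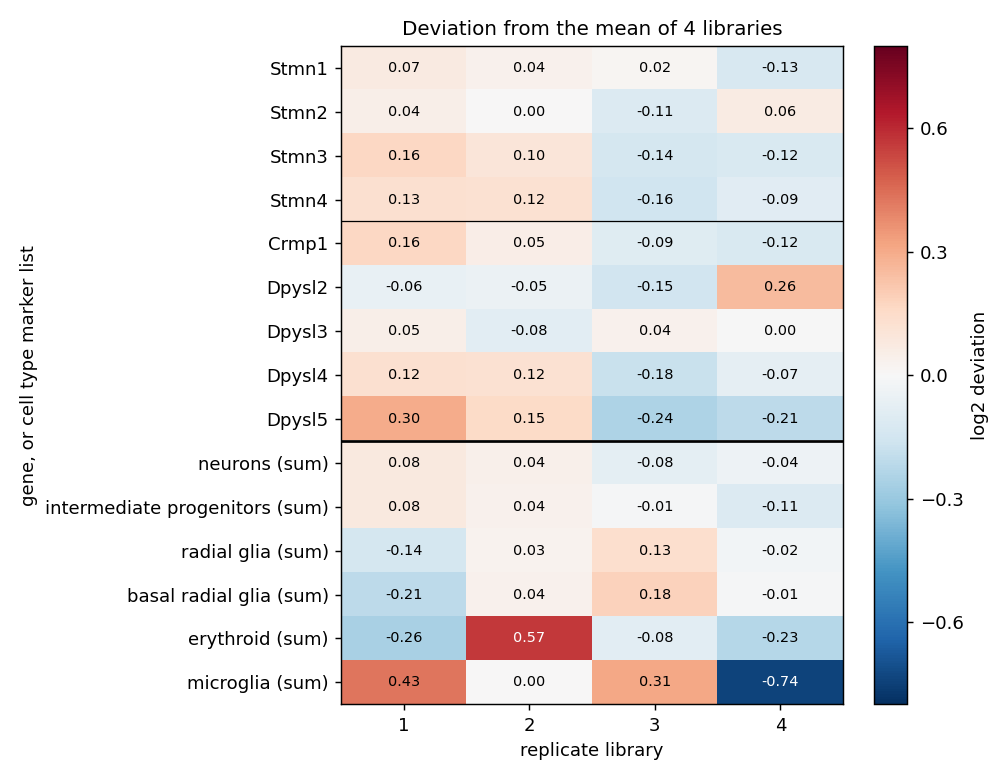
Deviation of log2(TPM + 1) of each member, and of the log2 summed TPM of cell type marker lists, from its mean over 4 libraries; red is higher and blue lower. Replicate 1 is highest for 7 of 9 members, and Dpysl2 is highest in replicate 4; the neuron and radial glia sums follow mainly Tubb3 (68.2%) and Fabp7 (88.4%).

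Genes whose products act on stathmins and CRMPs, or with them, were nearly all above 1 TPM. Together with 2 enzymes that resemble CRMPs, 47 genes in 5 lists were tested, of which 45 lay above and 2 below 1 TPM by edgeR's quasi-likelihood test, against 65.9% above and 12.1% below among all genes tested. Their median was 26.8 TPM, against 4.68 TPM over all genes tested and 8.89 TPM over the protein-coding genes tested. The share above 1 TPM is also higher among protein-coding genes, where rank 12201 of 15401 still averaged 1.03 TPM. Of 21 kinases and phosphatases, 20 were above 1 TPM. The highest were Gsk3b at 352 ± 44.1 TPM (SD, n = 4), the p21-activated kinase Pak1, which acts on stathmin, at 175 ± 4.8 TPM and Cdk5, which primes CRMP2 for Gsk3b, at 139.7 ± 8.09 TPM. The tyrosine kinase gene Fes, whose product phosphorylates CRMPs downstream of semaphorin 3A, was below 1 TPM, at 0.022, 0.175, 0.451 and 0.144 TPM (edgeR adjusted p = 0.0118).

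All 14 genes for semaphorin receptors and CRMP partners were above 1 TPM. Nrp1, the neuropilin that binds semaphorin 3A, was the highest of these at 342 ± 22.5 TPM (SD, n = 4), followed by the GTPase gene Rhoa at 70.4 ± 1.82 TPM and the adhesion molecule gene L1cam at 54.6 ± 3.8 TPM. All 6 genes of the tubulin list, whose products both families bind, were above 1 TPM. This list had the highest median of the lists, with Tuba1a at 17314 ± 437 TPM, Tubb3 at 6691 ± 496 TPM and Tubb5 at 4316 ± 146 TPM. Reads of alpha-tubulin genes resemble each other, so single values in that family are uncertain.

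The 4 genes of turnover and transcription were all above 1 TPM. The highest were Mycbp2, a ubiquitin ligase of axons, at 15.4 ± 1.84 TPM (SD, n = 4), Rest, the repressor of neuronal genes that include Stmn2, at 5.32 ± 0.846 TPM, and the cell cycle factor E2f1 at 4.87 ± 0.52 TPM. Dpys, the catalytic dihydropyrimidinase that CRMPs resemble, was below 1 TPM on 0, 11, 17 and 1 counts (0.192 TPM on average; edgeR adjusted p = 0.0392). Cad, which holds a dihydroorotase domain related to the same enzymes, was at 10.7 ± 1.25 TPM.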

How the data were processed

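The libraries are poly-dT-primed, template-switched and amplified cDNA of total RNA, sheared before Illumina sequencing, per the labels' protocols. Per the submitters' processing notes, bcl2fastq 2.19.1, STAR 2.5.2b and the build GRCm38 were used; the sources used here do not give the counter, its strand setting or its annotation. Deposited counts are whole reads per Ensembl gene, not normalised, for 45706 genes. The deposited TPM covers 15648 of them.

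TPM was recomputed from the deposited counts with merged exon lengths of GENCODE M21, in which 45143 identifiers matched; the other 563 held 0.120% to 0.125% of the counts. Levels were tested against 1 TPM with the quasi-likelihood F test of edgeR 4.0.16 (R 4.3.3), with the count expected at 1 TPM as offset, over genes with at least 10 counts, at an adjusted p of 0.05; the code was tested on simulated data. Since edgeR needs a null model with a coefficient, the F statistic was computed from its fit against that fixed mean. Differences between members were taken within libraries with a pseudocount of 1 TPM. Coding sequences were aligned with mafft 7.526, and near-identical transcripts were sought with blastn 2.17.0.

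The members, lists and tests were chosen with earlier results of these data known. The comparison without Dpysl2, the coding transcript length, the shared stretches, the search for copies, the variation of genes of like level and the comparisons of libraries by gene length and by highest or lowest gene (also within lists) were added after seeing the data. Genes were named by rule: all members, the 3 highest genes of each partner list and those below 1 TPM, Hopx, Fabp7, Eomes and Tubb3 among the markers, the 3 genes nearest in level to Dpysl2 and to Stmn1, and copies of members. Of these, 1 gene is not reported here.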

Additional observations from a re-analysis of the deposited data

Results flagged for a closer look

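Of 21 sets of 4 library values checked (the level and family share of each member, the family totals and their ratio), 3 had a library far from the others, its gap to the nearest library above Dixon's 95% critical value. By chance about 1 set in 20 does so. The share of Stmn1 in the stathmin total was 51.1% in replicate 3, against 47.3% to 47.5% in the other libraries. The share of Stmn2 was 9.91% in replicate 4, against 8.47% to 8.58%. The log2 ratio of the stathmin total to the CRMP total was -0.96 in replicate 4, against -0.58 to -0.53 in the other libraries, and Dpysl2 was highest in that library.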

How the results depend on the processing

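All 9 members stayed above 1 TPM with every alternative tried (other lengths, TMM or DESeq2 scaling, the DESeq2 Wald test, filters of 1 and 40 counts, a level of 10 TPM, and each library left out). The partner and relative genes were not tested against 10 TPM. Under the other alternatives, those above 1 TPM numbered 40 to 45, with 40 of 43 on the deposited TPM. Between 33 and 36 of the 36 pairs were apart under every alternative, and without replicate 1 the order of 1 pair turned. The log2 ratio of stathmin to CRMP totals was -0.66, and -0.70 to -0.56 with each library left out. It moved to -0.16 with the longest transcript as length, to -0.080 with the longest coding transcript, an alternative chosen after seeing the data, and to -1.91 on CPM. It reversed to 1.03 on the deposited TPM and to 1.74 as a difference of family medians of log2(TPM + 1), which gives Dpysl2 no more weight than any other member. No paired analysis was possible because the 4 libraries form a single group. Counting error was largest for Dpysl4, at 5.44% of the count.

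With the longest transcript as length, the mean level moved by more than 1 SD for 6 of 9 members, to Stmn1 3368, Stmn2 558, Stmn3 895, Crmp1 538, Dpysl2 5087 and Dpysl3 609.8 TPM. The family share then moved by more than 1 SD for 7 members, to Stmn1 57.2%, Stmn3 15.2%, Stmn4 18.1%, Crmp1 8.21%, Dpysl2 76.8%, Dpysl4 0.464% and Dpysl5 5.24%. With the longest coding transcript, the mean level moved by more than 1 SD for 7 of 9 members, to Stmn1 3108, Stmn2 848, Stmn3 826, Crmp1 497, Dpysl2 4695, Dpysl3 563 and Dpysl4 33.2 TPM. The family share then moved by more than 1 SD for 8 members, to Stmn1 53.9%, Stmn2 14.8%, Stmn3 14.3%, Stmn4 17%, Crmp1 8.2%, Dpysl2 76.7%, Dpysl4 0.548% and Dpysl5 5.24%. On the deposited TPM, the mean level moved by more than 1 SD for 9 of 9 members, to Stmn1 2999, Stmn2 169, Stmn3 587, Stmn4 387, Crmp1 152, Dpysl2 1621, Dpysl3 132, Dpysl4 35.5 and Dpysl5 94.3 TPM. The family share then moved by more than 1 SD for 8 members, to Stmn1 72.4%, Stmn2 4.1%, Stmn3 14.1%, Stmn4 9.33%, Crmp1 7.53%, Dpysl2 79.5%, Dpysl3 6.54% and Dpysl4 1.76%. On CPM, the mean level moved by more than 1 SD for 9 of 9 members, to Stmn1 1507, Stmn2 803, Stmn3 429, Stmn4 612, Crmp1 694, Dpysl2 9682, Dpysl3 1409, Dpysl4 54 and Dpysl5 754 CPM. The family share then moved by more than 1 SD for 9 members, to Stmn1 45%, Stmn2 24%, Stmn3 12.8%, Stmn4 18.2%, Crmp1 5.54%, Dpysl2 76.8%, Dpysl3 11.2%, Dpysl4 0.43% and Dpysl5 6.01%. With each library left out in turn, no level or share moved by more than 1 SD. Leaving out 1 of 4 libraries cannot move a mean that far, so this says nothing about how steady the values were.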

Other observations

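Some partner genes come as alternative forms of an enzyme, and their levels differed widely. These were singled out after their values were seen. The Cdk5 activator gene Cdk5r1 (p35) was at 79.8 ± 8.42 TPM (SD, n = 4), while Cdk5r2 (p39) was at 3.15, 2.25, 1.79 and 1.30 TPM in replicates 1 to 4. Among the c-Jun N-terminal kinase genes, whose products phosphorylate Stmn2, Mapk10 was at 44.0 ± 1.13 TPM, Mapk8 at 21 ± 3.02 TPM and Mapk9 at 13.6 ± 1.57 TPM. Of the calcium/calmodulin-dependent kinase genes, Camk2b was at 18.51 ± 1.14 TPM and Camk2a at 1.77 ± 0.524 TPM. The glycogen synthase kinase gene Gsk3a was at 9.77 ± 1.18 TPM, below Gsk3b.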
